A study of Mus musculus with 6 samples.

Results

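Focal adhesion kinase (FAK) and 9 proteins of the focal adhesion were followed at the RNA level in squamous cell carcinoma (SCC) cells of the mouse. The 10 genes are listed by Ensembl identifier, and each of the 10 had a row among the 17204 genes of the table. They are Ptk2 (ENSMUSG00000022607), Ptk2b (ENSMUSG00000059456), Src (ENSMUSG00000027646), Pxn (ENSMUSG00000029528), Vcl (ENSMUSG00000021823), Tln1 (ENSMUSG00000028465), Bcar1 (ENSMUSG00000031955), Zyx (ENSMUSG00000029860), Ilk (ENSMUSG00000030890) and Parva (ENSMUSG00000030770). The symbols come with the list that defines the genes, since the table itself holds identifiers only.

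A focal adhesion is the site where integrins in the cell membrane couple the extracellular matrix to actin filaments. Talin binds the integrin tail, vinculin strengthens the link to actin, and the ILK and parvin proteins form a further link. FAK and Src phosphorylate the scaffolds paxillin and Cas there, which recruit the regulators of cell spreading and migration, and FAK is also known to enter the nucleus.

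The cells came from tumors raised by chemical carcinogenesis in FVB mice of the genotype K14CreER FAKflox/flox, in which the keratin 14 promoter drives a tamoxifen-inducible Cre recombinase. The SCC FAK-/- line is a single clone in which Cre had been switched on. SCC FAK-wt is that clone carrying a retroviral copy of wild-type FAK, kept under hygromycin. Both cell lines thus carry the deletion, and re-expression of FAK, retroviral infection and selection cannot be told apart between them. The comparison asks which transcripts differ when FAK is present, with 3 arrays of each cell line. None of the 6 arrays is labelled as cells with an empty vector or as tumor cells before the deletion. Keratinocyte and other cell type markers were not checked here because the identifiers could not be paired with symbols.

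Values are log2 expression after Robust Multi-array Average (RMA) normalization, 1 value per gene and array. A log2 fold change is the mean of SCC FAK-wt minus that of SCC FAK-/-, with its standard error and p from limma, a linear model with variances moderated across genes. Adjusted p-values are by Benjamini-Hochberg over all 17204 genes. Levels are compared between cell lines for 1 gene at a time, since probes of different genes differ in brightness. In RNA from whole cultures, fewer cells expressing a gene and less RNA per cell cannot be told apart.

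None of the 10 genes (0 of 10) passed an adjusted p under 0.05, where 1.92% of all genes did. The lowest adjusted p was 0.0926, for Zyx, and the highest 0.878, for Ptk2b. At an unadjusted p under 0.01, the threshold named for this study, 1 of the 10 passed, again Zyx, which was lower in SCC FAK-wt cells, and 3.66% of all genes passed in that direction. At an unadjusted p under 0.05, Zyx and Src were lower and Tln1 was higher, 2 and 1 of the 10, against 7.74% of all genes lower and 7.76% higher. Src and Tln1 each lost this call in 3 of the 6 fits that leave out 1 array. Some other settings added genes that were lower. With variances moderated robustly along a trend with the level, these were Ilk, Parva and Pxn (unadjusted limma p 0.00479, 0.0336 and 0.0419). With quantile normalization they were Ilk (0.0316) and Pxn (0.0287), and without moderation Ilk (0.0168) and Parva (0.0140), while Src lost the call (0.0711). The shares of all genes given here come from the main fit. The 10 genes had a median log2 fold change of -0.16 against 0.016 over all genes, and a median absolute log2 fold change of 0.19 against 0.14. By their means 7 of the 10 were lower in SCC FAK-wt cells, as were 46.7% of all genes.

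**Figure D1:**
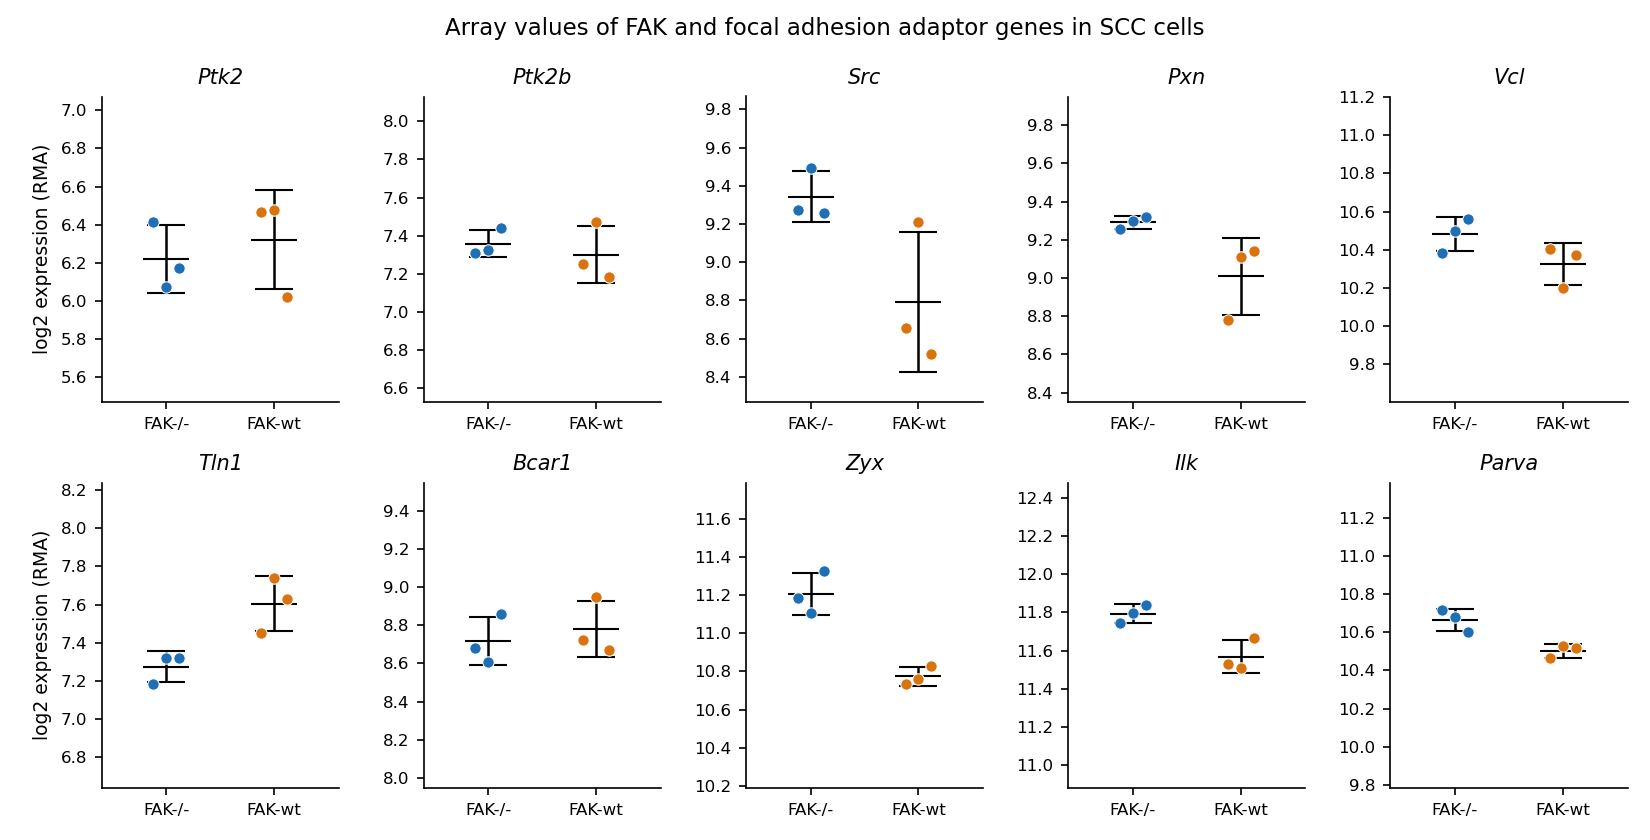
Log2 expression (RMA) of each gene on the 3 SCC FAK-/- arrays (blue) and the 3 SCC FAK-wt arrays (orange), with replicates 1 to 3 from left to right and black bars for the mean ± SD. Every panel spans the same number of log2 units around its own center; the clearest gap between the cell lines is in Zyx, at 0.28 log2 units, while the points of Ptk2, Ptk2b, Vcl and Bcar1 overlap.

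The gene that was deleted and put back, Ptk2, encodes FAK, the tyrosine kinase on which the model is built. It read 6.47, 6.48 and 6.02 in SCC FAK-wt cells and 6.42, 6.07 and 6.18 in SCC FAK-/- cells. The highest 2 values and the lowest value of the 6 were all in SCC FAK-wt, so the cell lines overlapped. A log2 fold change of 0.10 resulted, with a standard error of 0.16 and a limma adjusted p of 0.839. The log2 fold change was 0.024 without replicate 2 of SCC FAK-wt and 0.25 without replicate 3. With all 6 arrays, the 95% interval of -0.28 to 0.48 spans a ratio of SCC FAK-wt to SCC FAK-/- from 0.826 to 1.39. Where the probes of this row lie relative to the deleted exons and to the retroviral cDNA is not given in the sources used here, so the value is no check of the labels. The labels are used as given for all directions.

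Among the other genes of the table, the profile over the 6 arrays closest to that of Ptk2 was that of ENSMUSG00000057337. After each gene's mean was subtracted, the 2 profiles differed by a root mean square of 0.036 log2 units. The next was ENSMUSG00000069874 at 0.050, and 88 genes lay within 0.1 of Ptk2. The profile of Ptk2 itself had a root mean square deviation of 0.19 log2 units. A likeness over 6 arrays in a gene with little difference between the cell lines describes these arrays only.

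Ptk2b encodes Pyk2, the closest relative of FAK and the only other kinase of its family. Its values were 7.25, 7.47 and 7.18 in SCC FAK-wt and 7.31, 7.32 and 7.44 in SCC FAK-/-. The SCC FAK-/- values all lay inside the range of the SCC FAK-wt values. The difference was -0.057 on the log2 scale (standard error 0.11, limma adjusted p = 0.878), and the 95% interval ran from -0.32 to 0.21. The direction depended on single arrays: -0.14 without replicate 2 of SCC FAK-wt and 0.0033 without replicate 3.

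Src, the founding member of its kinase family, binds FAK once FAK has phosphorylated itself. It had the largest difference of the 10. Its values were 8.65, 9.21 and 8.52 in SCC FAK-wt and 9.27, 9.50 and 9.26 in SCC FAK-/-. All 3 SCC FAK-wt values were below all 3 SCC FAK-/- values, but replicate 2 of SCC FAK-wt came within 0.050 of the lowest of them. The mean was 8.79 ± 0.37 (SD, n = 3) against 9.34 ± 0.13 (SD, n = 3), a difference larger than either SD. The log2 fold change was -0.55 (standard error 0.19, 95% interval -0.99 to -0.11), or 1.46-fold lower in SCC FAK-wt, with a limma adjusted p of 0.220. Over the 6 fits without 1 array, the value ranged from -0.76, without replicate 2 of SCC FAK-wt, to -0.41, without replicate 3, and the adjusted p from 0.0644 to 0.436. The unadjusted p was 0.05 or more in 3 of them, at 0.0698 to 0.0711 without replicate 1 or 3 of SCC FAK-wt or replicate 2 of SCC FAK-/-, and was 0.0711 without moderation of the variances. It was under 0.01 without replicate 2 of SCC FAK-wt (0.000867), with the replicate block (0.00800) and with array weights (0.00996).

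Of the scaffolds that the kinases phosphorylate, paxillin was separated between the cell lines and Cas was not, and neither passed the test. Pxn, which encodes paxillin, read 8.78, 9.11 and 9.14 in SCC FAK-wt and 9.26, 9.30 and 9.32 in SCC FAK-/-. The cell lines did not overlap, and the gap between them was 0.11 log2 units. The SCC FAK-/- arrays were close together, with an SD of 0.032, while replicate 1 of SCC FAK-wt stood below its 2 partners. Its log2 fold change was -0.28, with a standard error of 0.12, a 95% interval of -0.57 to 0.011 and a limma adjusted p of 0.341. It was -0.16 without replicate 1 of SCC FAK-wt. The unadjusted limma p was 0.0570 in the main fit. It was under 0.05 with moderation by trend and robustly (0.0419), quantile normalization (0.0287), array weights (0.0436) and without replicate 3 of SCC FAK-wt (0.0427). It was 0.102 with each array centered on its median and 0.174 without replicate 1 of SCC FAK-wt.

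Bcar1 encodes Cas, a scaffold with many tyrosines that are phosphorylated when cells are stretched. It read 8.72, 8.95 and 8.67 in SCC FAK-wt and 8.68, 8.61 and 8.86 in SCC FAK-/-. Here the values were interleaved. On the log2 scale the difference was 0.063 (standard error 0.12, 95% interval -0.22 to 0.35, limma adjusted p = 0.873). It turned to -0.021 without replicate 2 of SCC FAK-wt and was 0.13 without replicate 3 of SCC FAK-/-.

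Of the proteins between integrin and actin, talin was the 1 gene of the 10 that stood higher in SCC FAK-wt without overlap. Tln1 encodes talin 1, which activates integrins by binding their cytoplasmic tail. It read 7.45, 7.74 and 7.63 in SCC FAK-wt and 7.18, 7.32 and 7.32 in SCC FAK-/-. Every SCC FAK-wt value was above every SCC FAK-/- value, with a gap of 0.13 log2 units. The means were 7.61 ± 0.15 (SD, n = 3) and 7.27 ± 0.080 (SD, n = 3). That is a log2 fold change of 0.33 (standard error 0.11, 95% interval 0.065 to 0.60), or 1.26-fold, with a limma adjusted p of 0.218. The unadjusted p was 0.0668 without replicate 2 of SCC FAK-wt, 0.0542 without replicate 3 of SCC FAK-wt and 0.0728 without replicate 1 of SCC FAK-/-, and the value then was 0.26 to 0.32. Replicates 2 and 3 of SCC FAK-/- had the same value to every digit given, which occurred in 19 to 52 genes for each pair of arrays.

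Vcl encodes vinculin, which binds talin and actin where an adhesion is under tension. Its values were 10.40, 10.20 and 10.37 in SCC FAK-wt and 10.38, 10.50 and 10.56 in SCC FAK-/-. The ranges overlapped by 0.018 log2 units, through replicate 1 of each cell line. Vcl had a log2 fold change of -0.16, with a standard error of 0.11, a 95% interval of -0.41 to 0.096 and a limma adjusted p of 0.568. It was -0.093 without replicate 2 of SCC FAK-wt, its lowest value.

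Zyx encodes zyxin, a LIM domain protein that gathers at strained actin fibers and mature adhesions. It read 10.73, 10.76 and 10.83 in SCC FAK-wt and 11.19, 11.11 and 11.32 in SCC FAK-/-. The cell lines were farther apart than in any of the other 9 genes, with 0.28 log2 units between the nearest arrays. The means were 10.77 ± 0.049 (SD, n = 3) and 11.20 ± 0.11 (SD, n = 3). The difference was thus several times the SD of either cell line. This log2 fold change of -0.43 (standard error 0.10, 95% interval -0.67 to -0.19), or 1.35-fold lower in SCC FAK-wt, had an unadjusted limma p of 0.00368 and an adjusted p of 0.0926. It passed an adjusted p under 0.05 only with variances moderated robustly along a trend with the level, where the adjusted p was 0.0194, and over the 13 alternative settings the adjusted p ranged from 0.0194 to 0.226. With 1 array left out, the unadjusted p was 0.00585 to 0.0142. It was above 0.01 without replicate 1 or 2 of SCC FAK-wt, without replicate 1 or 3 of SCC FAK-/-, and with the replicate block (0.0103).

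The last pair of genes encodes partners in 1 complex. Ilk encodes integrin-linked kinase, which acts mainly as a scaffold, and Parva encodes alpha-parvin, which joins it to actin. Ilk read 11.53, 11.51 and 11.67 in SCC FAK-wt and 11.74, 11.79 and 11.84 in SCC FAK-/-. Parva read 10.46, 10.53 and 10.52 in SCC FAK-wt and 10.72, 10.68 and 10.60 in SCC FAK-/-.

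In both genes every SCC FAK-wt array was below every SCC FAK-/- array, by 0.078 log2 units at the nearest in Ilk and by 0.072 in Parva. The log2 fold change of Ilk was -0.23 (standard error 0.098, 95% interval -0.46 to 0.0044, limma adjusted p = 0.331). That of Parva was -0.16 (standard error 0.093, 95% interval -0.38 to 0.055, limma adjusted p = 0.474). Neither passed the test, although Parva had SDs of 0.035 and 0.058 in SCC FAK-wt and SCC FAK-/-. The unadjusted limma p of both was under 0.05 with moderation by trend and robustly (Ilk 0.00479, Parva 0.0336) and without moderation (0.0168 and 0.0140). That of Ilk was also under 0.05 with quantile normalization (0.0316) and without replicate 3 of SCC FAK-wt (0.0432). Over the 13 alternatives the lowest adjusted p was 0.0861 for Ilk and 0.219 for Parva.

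**Figure D2:**
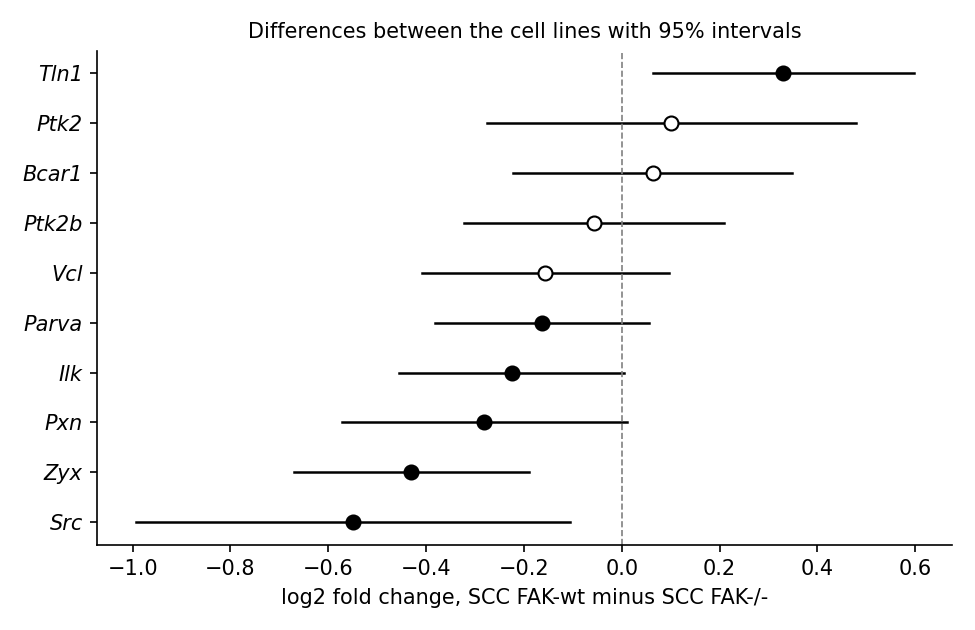
Log2 fold change of each gene (SCC FAK-wt minus SCC FAK-/-) with its 95% interval from limma, in order of size. Filled points mark genes whose 3 arrays of 1 cell line lie wholly on 1 side of the other 3; the intervals of Src, Zyx and Tln1 leave out 0, before adjustment for the number of genes tested.

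Counted together, 6 of the 10 genes had cell lines that did not overlap, where 21.5% of all genes did. Of these, 5 were lower in SCC FAK-wt (Src, Pxn, Zyx, Ilk and Parva), against 10.0% of all genes, and 1 was higher (Tln1), against 11.5%. These counts are descriptive, since the genes were chosen with earlier results of these data known and were read on the same 6 arrays. With 3 arrays on each side, the smallest two-sided p of an exact permutation test on 1 gene is 0.1, so a lack of overlap alone does not pass a threshold of 0.05. The largest absolute log2 fold change measured among the 10 was 0.55, below 2-fold.

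The promoter windows of the genes show which well-known sequence motifs stand next to their starts. RefSeq windows on GRCm38.p6, from 250 bases before to 50 bases after a gene's start, were found by symbol for 6 of the 10 genes (Src, Vcl, Tln1, Bcar1, Zyx and Ilk), in 8 windows. Both strands were searched for the CArG box bound by serum response factor, the AP-1 site TGANTCA, the GC box GGGCGG, the CCAAT box CCAAT and the TATA box TATAAA. Over all 32851 windows of the mouse these were found in 1.63%, 7.81%, 35.7%, 37.4% and 13.6%. The windows of the 3 genes with an unadjusted p under 0.05 are given, with matches in capitals.
Zyx, chr6:42349578-42349877, plus strand: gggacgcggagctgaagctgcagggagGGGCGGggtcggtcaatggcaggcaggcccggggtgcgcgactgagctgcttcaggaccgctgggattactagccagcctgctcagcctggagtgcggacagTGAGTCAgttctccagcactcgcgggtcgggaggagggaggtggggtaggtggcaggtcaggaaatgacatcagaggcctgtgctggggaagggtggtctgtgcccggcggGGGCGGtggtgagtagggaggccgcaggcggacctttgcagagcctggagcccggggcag
Src, chr2:157424043-157424342, plus strand: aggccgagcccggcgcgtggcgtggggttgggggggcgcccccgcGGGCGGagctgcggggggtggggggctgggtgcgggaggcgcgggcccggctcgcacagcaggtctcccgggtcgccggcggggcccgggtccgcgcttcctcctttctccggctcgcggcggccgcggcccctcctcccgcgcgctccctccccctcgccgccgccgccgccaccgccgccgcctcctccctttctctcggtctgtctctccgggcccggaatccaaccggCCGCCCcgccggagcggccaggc
Tln1, chr4:43562534-43562833, minus strand: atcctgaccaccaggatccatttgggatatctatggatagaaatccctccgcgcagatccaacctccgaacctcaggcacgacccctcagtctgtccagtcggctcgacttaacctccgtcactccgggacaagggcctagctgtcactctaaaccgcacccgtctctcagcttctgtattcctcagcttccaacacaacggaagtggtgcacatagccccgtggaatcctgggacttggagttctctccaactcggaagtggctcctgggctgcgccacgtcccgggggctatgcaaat

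The Zyx window held 1 AP-1 site and 2 GC boxes, and that of Src held 2 GC boxes. That of Tln1 held none of the 5 motifs (0 matches), as did the first window of Ilk. The Tln1 window had the lowest share of G and C among the 8 windows, 57.0%, against 68.3% for Zyx and 82.3% for Src. Whether these sequences bear on the direction of a gene was not tested. Of the 8 windows, the 1 CArG box was in that of Vcl, which also held 4 GC boxes and 3 CCAAT boxes. The 2 windows of Bcar1 held 3 and 2 GC boxes, with 1 CCAAT box in the former, and of the 2 overlapping windows of Ilk only the second held a match, to 3 GC boxes. These matches describe the sequence near the starts and do not show that a factor binds there.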

How the data were processed

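RNA from 3 SCC FAK-wt and 3 SCC FAK-/- samples was amplified over the whole transcriptome and measured on Affymetrix GeneChip mouse arrays. The authors combined the probes of each Ensembl gene into 1 value per array by RMA, using affy, and the deposited values were read as log2 expression from their range. The affy version, which probes make up a gene and the background step are not given in the sources used here, and the background step can compress differences of dim genes.

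All 17204 genes were fitted without a filter in limma 3.58.1 (R 4.3.3; lmFit and eBayes, two-sided) with the cell line as the only term. The fit was tested on simulated data: a first test on 1 draw exceeded its limit on false calls, and the mean over 10 other draws passed a limit that was set after draws had been seen, so this is weak support for the adjusted p-values. Intervals use the moderated standard errors at 95%. The alternatives were other variance moderation, 2 further scalings, a filter on dim genes, array weights, the replicate number as a block and leaving out each array.

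The rule for named genes was to give all 10 and the nearest profiles to Ptk2. The genes and lists were chosen with earlier results of these data known. The 9 lists of further adhesion genes and cell type markers were set by symbol and not used here, since 0 of 17204 identifiers matched the table of gene names. Symbols of the 10 genes come from the definition of the group. Arrays have no read depth, and 3 per cell line limit the precision. Samples are separate biological replicates of 1 line each, so p-values measure the spread between cultures of these 2 lines.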

Additional observations from a re-analysis of the deposited data

How the results depend on the processing

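Over the 13 alternatives, 8 of the 10 genes kept their direction. Bcar1 turned to -0.021 without replicate 2 of SCC FAK-wt and Ptk2b to 0.0033 without replicate 3 of SCC FAK-wt. With each array left out, Bcar1 ranged from -0.021 to 0.13 and Ptk2b from -0.14 to 0.0033. The number of genes at an adjusted p under 0.05 (0 of 10) became 1, Zyx, with moderation by trend and robustly, and was 0 in the other 12. At an unadjusted p under 0.01 the number (1) became 2 with that moderation (Zyx and Ilk) and 2 with array weights (Zyx and Src), and ranged from 0 to 1 with an array left out: 0 without replicate 1 of SCC FAK-wt and without replicates 1 or 3 of SCC FAK-/-, and 1 otherwise, which without replicate 2 of SCC FAK-wt was Src. The cause of these changes was not tested. Shares of all genes were counted in the main fit only. Whether the number of calls over all genes changed likewise in these settings was not tested. The log2 fold change of Ptk2 was 0.024 to 0.25 over the 13 alternatives, with the lowest adjusted p, 0.508, without replicate 3 of SCC FAK-wt.

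In a model with replicate number added as a replicate block, 0 genes passed an adjusted p under 0.05 and 1 passed an unadjusted p under 0.01, which was Src (unadjusted p = 0.0080) and not Zyx (0.0103), and Ptk2 stayed at 0.10. Deviations of same-numbered arrays correlated across genes at -0.034 to 0.028. A correlation over all genes cannot tell whether some genes share a batch, and the labels give only the number. The count over the adhesion lists was not run, as symbols could not be matched. The Ptk2 means were 6.32 in SCC FAK-wt and 6.22 in SCC FAK-/-, where the medians of the arrays were 5.90 to 5.97. Signal over background is not given by the values, so whether a difference in Ptk2 was compressed near the background was not tested.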
